A study of Homo sapiens with 6 samples.

Results

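The cyclins, kinases and retinoblastoma proteins that carry a cell through G1 were followed in HTori-3.1, a human thyroid cell line immortalised with SV40 large T antigen, after etoposide. The genes were chosen by symbol, as the D cyclins CCND1, CCND2 and CCND3, the E cyclins CCNE1 and CCNE2, the kinases CDK2, CDK4 and CDK6, and the pocket proteins RB1 and RBL1, and all 10 were found among the 22354 loci of the counts table. RNA was sequenced from 3 libraries labelled control, of wild type genotype, and 3 labelled BMAL1 knockout, whose cells had been infected with a lentivirus carrying Cas9 and an sgRNA against BMAL1 and selected with puromycin before single clones were picked; the protocol also describes a BMAL1 siRNA, but the titles name the sgRNA. Both groups received etoposide, a topoisomerase poison that breaks DNA and is used to bring cells into senescence, at 2 μM. The treatment field of the labels gives 12 h of exposure and the protocol 24 h, and cells without etoposide were not analysed here. How many clones the libraries stand for, and whether the control cells carried Cas9 or another sgRNA, is not given in the sources used here. Nothing in the labels says that replicates came from separate cultures, so p-values measure only the spread between these libraries, which may be technical.

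In G1, growth signals raise the D cyclins, which activate CDK4 and CDK6, and the E cyclins then activate CDK2. These kinases phosphorylate RB1 and its relatives RBL1 (p107) and RBL2 (p130), which otherwise hold E2F factors and their S phase genes silent, while inhibitors such as p21 and p15 restrain the kinases. Senescent cells leave the cycle with this brake engaged, and large T antigen binds the pocket proteins, so the cell line is a limited model of the brake.

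The targeted gene was read first, as a check of the labels. BMAL1 (ENSG00000133794.20) stood at 11.3, 12.2 and 14.6 CPM (counts scaled by library total and edgeR's TMM factors) in control replicates 1 to 3, and at 17.9, 19.8 and 19.4 CPM in the libraries labelled BMAL1 knockout. All 3 libraries labelled knockout lay above all 3 controls, against the label, with a log2 fold change of 0.58 (SE 0.11, edgeR adjusted p = 0.0237). The adjusted p was between 0.0598 and 0.129 without control replicate 1, control replicate 2, knockout replicate 2 or knockout replicate 3. Reads on a transcript do not show whether protein was made from it, and by the protocol the knockout was assessed on western blots. Genes that BMAL1 activates with CLOCK were read besides, in a list of 10 written after values of these data were seen. NR1D1, which encodes the repressor REV-ERB alpha, stood at 7.75, 7.11 and 6.86 CPM in the controls and at 3.07, 3.24 and 2.84 CPM in the libraries labelled knockout, and fell by 1.25 on the log2 scale (edgeR adjusted p = 0.00121). NR1D2 (-0.78, edgeR adjusted p = 0.00277), PER3 (-0.49, edgeR adjusted p = 0.0195) and TEF (-0.51, edgeR adjusted p = 0.0341) were also called lower, so that 4 of the 10 were, beside 1.36% of all loci. PER3 was not called without control replicate 1, 2 or 3 or knockout replicate 2 (adjusted p 0.0654 to 0.0957), nor TEF without any library but knockout replicate 1 (control replicates 1, 2 and 3 and knockout replicates 2 and 3, adjusted p 0.0695 to 0.140). The other 6, PER1, PER2, CRY1, CRY2, DBP and CIART, were not called, and 4 of them had a log2 fold change above 0, among them PER2 (0.33, edgeR adjusted p = 0.214), whose libraries separated by group on the higher side. Every direction below is that of the libraries labelled BMAL1 knockout against the control libraries.

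Depth and the spread of replicates differed between the libraries. Total counts were 26893063, 27029060 and 28513703 in the controls and 43148059, 29860233 and 43563391 in the libraries labelled knockout, so the medians differed by a ratio of 1.60. Knockout replicate 1 stood apart from the other libraries. It held the highest or the lowest value of the 6 libraries at 49.3% of the 14860 loci tested, against 25.4% to 38.2% for each other library. At the 9 G1 genes tested it did so at 4, and control replicate 3 at 5. In all, 150 loci were called higher and 202 lower (adjusted p below 0.05; edgeR quasi-likelihood test, Benjamini-Hochberg adjustment over all loci tested), and with library size as the only scaling the split was 175 higher and 155 lower. Without knockout replicate 1, 323 loci were called higher and 360 lower.

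Of the 10 G1 genes, 9 passed the filter on low counts and 1 was called, CCND1, which fell. Of all loci tested, 2.37% were called in either direction, 1.36% were called lower and 16.9% had an unadjusted p under 0.05. Among the 9 genes 4 log2 fold changes were above 0 and 5 below, with a median of -0.01, beside a median of 0.01 over all loci tested. The libraries separated fully by group in CPM at 2 of the 9, CCND1 on the lower side and CDK2 on the higher side, as at 11.5% of all loci on the lower side and 11.8% on the higher side. The 8 genes that were not called had log2 fold changes from -0.14 to 0.29, and each of their 95% intervals held 0, within outer bounds of -0.32 and 0.58. Bulk RNA gives the mean of a culture, so fewer cells expressing a gene and less RNA per cell cannot be told apart.

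**Figure D1:**
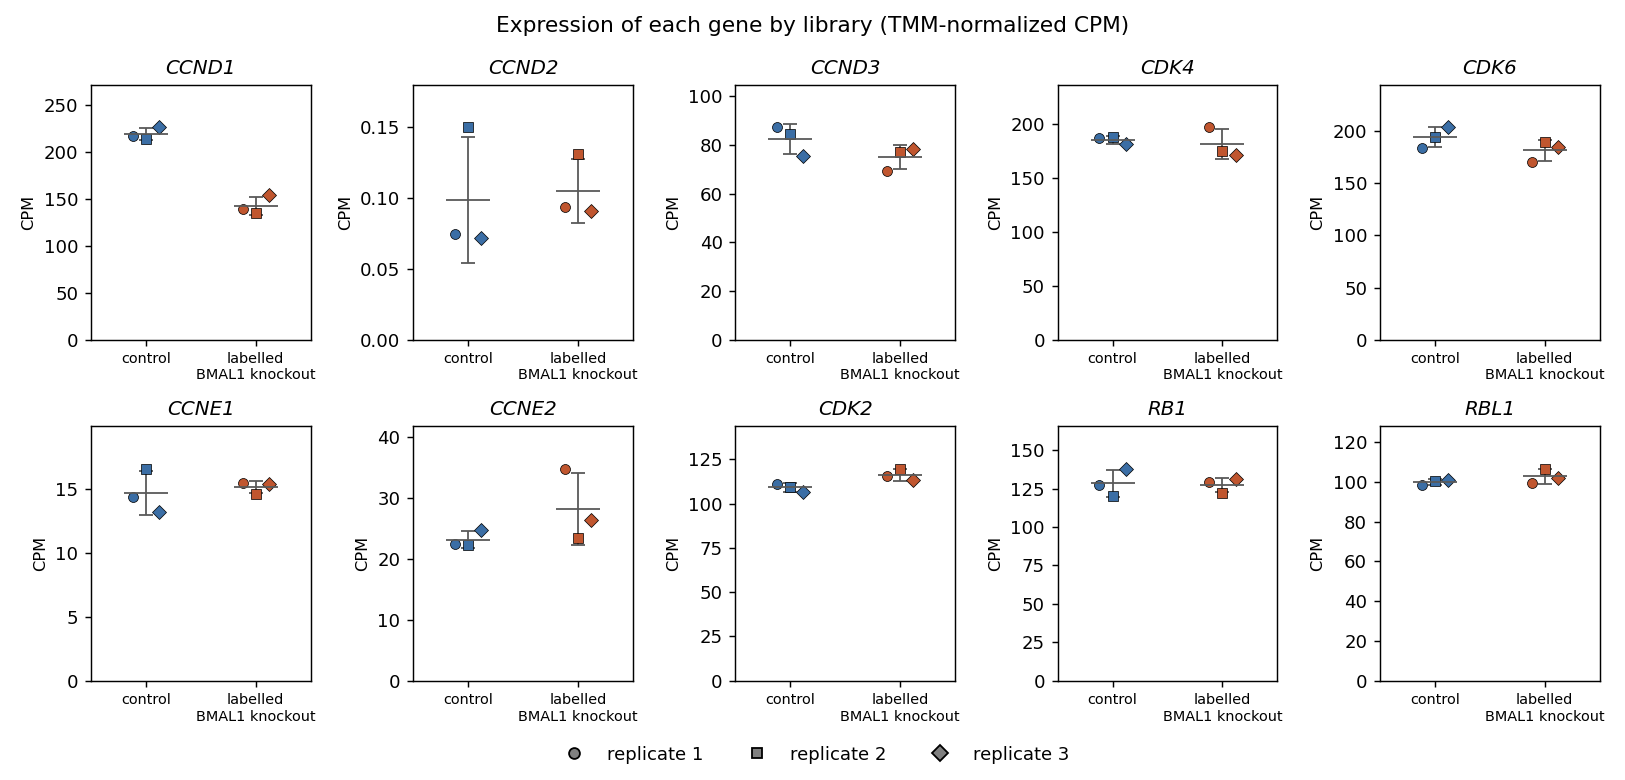
TMM-normalized CPM of each G1 gene in the 6 libraries, with a panel and its own axis from 0 for each gene; points are libraries, the long bar is the mean of 3 and the whiskers are its SD. CCND1 lay between 214 and 226 CPM in the controls and between 135 and 153 CPM in the libraries labelled BMAL1 knockout, while CCND2 lay at 0.15 CPM or below.

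CCND1 (ENSG00000110092.4), which encodes cyclin D1, spans chr11:69641156-69654474 (hg38, forward strand). It was measured at 216, 214 and 226 CPM in control replicates 1 to 3 and at 139, 135 and 153 CPM in the libraries labelled knockout. The controls lay close together, all 3 libraries labelled knockout lay below them, and the gap between the groups was larger than the range within either. The mean was 219 ± 6.29 CPM (SD, n = 3) in the controls and 142 ± 9.85 CPM (SD, n = 3) in the libraries labelled knockout (two-sided exact permutation test, p = 0.1, the smallest that 3 libraries against 3 allow). CCND1 fell by 34.9%, a log2 fold change of -0.62 (SE 0.08, 95% interval -0.79 to -0.45, edgeR adjusted p = 0.00242). This was a larger difference than at 94.6% of the loci tested. The fold change did not reach 2, so 0 of the G1 genes were called by edgeR with a fold above 2 asked for together with an unadjusted p below 0.01. At an unadjusted p under 0.05 alone 1 was, and DESeq2 and limma-voom each called 1 at an adjusted p under 0.05.

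CCND1 shares 10.4% of its exon length with LTO1 on the opposite strand, and whether the counting used strand is not given in the sources used here. LTO1 itself was at 16.0 CPM in the controls and 15.7 CPM in the libraries labelled knockout, a log2 fold change of -0.03. The surroundings of CCND1 were looked at after its values were seen. Of 19 protein-coding genes that start within 1 Mb on either side, 12 were tested, 6 with a log2 fold change above 0 and 6 below, with a median of 0.01. edgeR called 0 of these 12, as did DESeq2 and limma-voom, beside 2.37% of all loci, and 1 had an unadjusted p under 0.05, SMIM38, with a log2 fold change of 0.71 (edgeR adjusted p = 0.292) and libraries separated by group on the higher side, at a mean under 1 CPM in each group. CTTN, the most abundant of them, had a log2 fold change of -0.00482, with a 95% interval from -0.17 to 0.16. MYEOV had the lowest log2 fold change of the 12, -0.25, with a 95% interval from -0.54 to 0.05 that overlapped that of CCND1, and its libraries separated by group on the lower side.

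**Figure D2:**
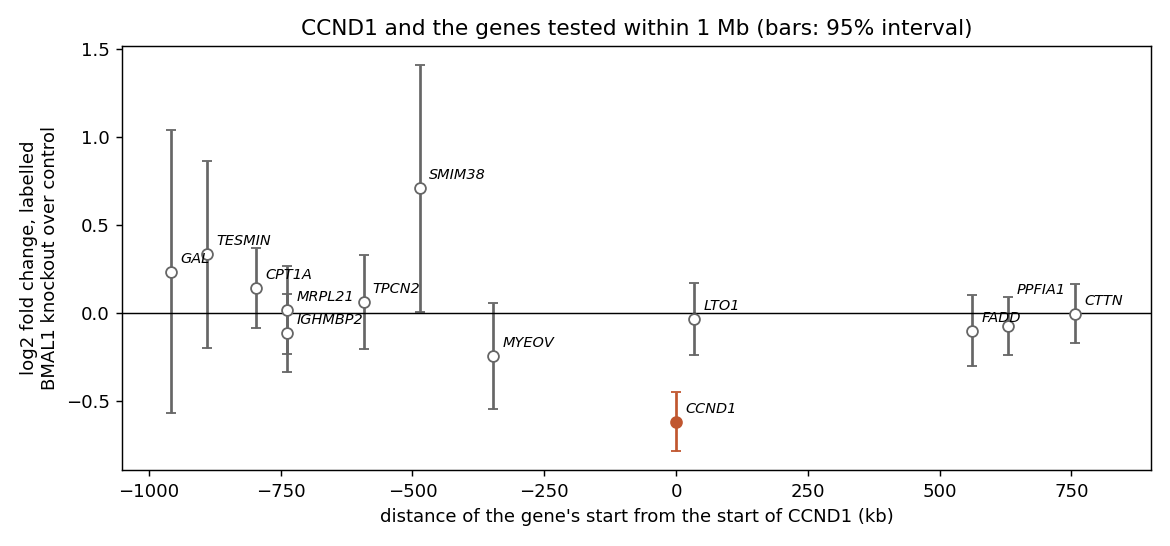
Log2 fold change (libraries labelled BMAL1 knockout over control) of CCND1 and of the 12 genes tested within 1 Mb, against the distance of each gene's start from that of CCND1 in kb; bars are 95% intervals and the filled point passed an adjusted p under 0.05. CCND1, at -0.62, lay below the 12 others, which ranged from -0.25 to 0.71.

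Among the genes whose log2 CPM ran most like that of CCND1 over the 6 libraries, of the 12478 genes averaging 1 CPM or more, were WNT5B and LAMB1, with Pearson's r of 0.999 and 0.998. As the libraries form 2 groups, r here mostly records the gap between them, and 487 genes reached an r of at least 0.9. WNT5B, a Wnt ligand, stood at 41.8, 41.7 and 45.8 CPM in the controls and at 23.3, 21.5 and 25.9 CPM in the libraries labelled knockout. LAMB1, a laminin chain, stood at 180.4, 177 and 182 CPM and at 139, 138 and 145 CPM. Their log2 fold changes were -0.87 and -0.35 (edgeR adjusted p = 0.00121 and 0.0233). The call of LAMB1 was lost without control replicate 1, 2 or 3 or knockout replicate 2, with an adjusted p between 0.0709 and 0.132.

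The other D cyclins were not called. CCND2, which encodes cyclin D2, had 2, 4 and 2 reads in the controls and 4 reads in each library labelled knockout, at or near a floor of 3 counts, so it was not tested and no fold is given. CCND2 also shares 12.51% of its exon length with another locus on the same strand. CCND3 (ENSG00000112576.13), which encodes cyclin D3, stood at 87.2, 84.3 and 75.5 CPM in the controls and at 69.3, 77.2 and 78.2 CPM in the libraries labelled knockout. The groups overlapped, with the lowest value in knockout replicate 1 and control replicate 3 below knockout replicates 2 and 3. The log2 fold change of CCND3 was -0.14 (SE 0.09, edgeR adjusted p = 0.455), and its 95% interval from -0.32 to 0.05 lay apart from that of CCND1.

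Within a library the makeup of the D cyclins does not depend on scaling between libraries. By counts per exon kilobase, CCND1 made up 75.0%, 75.4% and 78.4% of the D cyclin transcripts in the controls and 70.8%, 67.8% and 70.3% in the libraries labelled knockout. Every library labelled knockout lay below every control, and the mean share was lower by 6.60 percentage points (two-sided exact permutation test, p = 0.1, the smallest possible). CCND3 made up nearly all of the rest, from 23.7 ± 1.82% (SD, n = 3) in the controls to 30.3 ± 1.58% (SD, n = 3) in the libraries labelled knockout, and CCND2 at most 0.0393% in any library. The higher share of CCND3 came with a level that was not higher. Summed per length, the D cyclins went from 60.2 ± 0.570 RPKM (CPM per kilobase of exon; SD, n = 3) to 42.9 ± 2.53 RPKM (SD, n = 3).

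CDK4 and CDK6, the kinases that D cyclins activate, were not called. CDK4 (ENSG00000135446.17) stood at 187, 188 and 181 CPM in the controls and at 197, 175 and 171 CPM in the libraries labelled knockout. Knockout replicate 1 was the highest of all 6 and the other libraries labelled knockout the lowest, so the groups overlapped. The log2 fold change of CDK4 was -0.03 (SE 0.08, edgeR adjusted p = 0.862), and it was 0.01 without knockout replicate 3. CDK4 shares 44.2% of its exon length with TSPAN31 on the opposite strand, whose own log2 fold change was -0.02. CDK6 (ENSG00000105810.10) stood at 185, 194 and 204 CPM and at 170.5, 189.7 and 185 CPM, overlapping, with a log2 fold change of -0.10 (SE 0.08, edgeR adjusted p = 0.565). Per length CDK4 was the more abundant, at 60.0 against 15.9 RPKM in the controls, and its share of the pair was 79.1 ± 1.11% (SD, n = 3) in the controls and 79.7 ± 2.04% (SD, n = 3) in the libraries labelled knockout (two-sided exact permutation test, p = 0.8).

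The ratio of D cyclins to their kinases was formed after the values were seen, so it restates the lower CCND1 beside kinases that were not called and is given as a description, without a test. The summed D cyclins over the summed CDK4 and CDK6, per length, came to 0.801, 0.778 and 0.804 in the controls and to 0.531, 0.578 and 0.651 in the libraries labelled knockout. The means were 0.794 and 0.587. The summed kinases alone overlapped between the groups, at 75.8 ± 0.690 RPKM and 73.4 ± 3.75 RPKM (SD, n = 3 each).

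**Figure D3:**
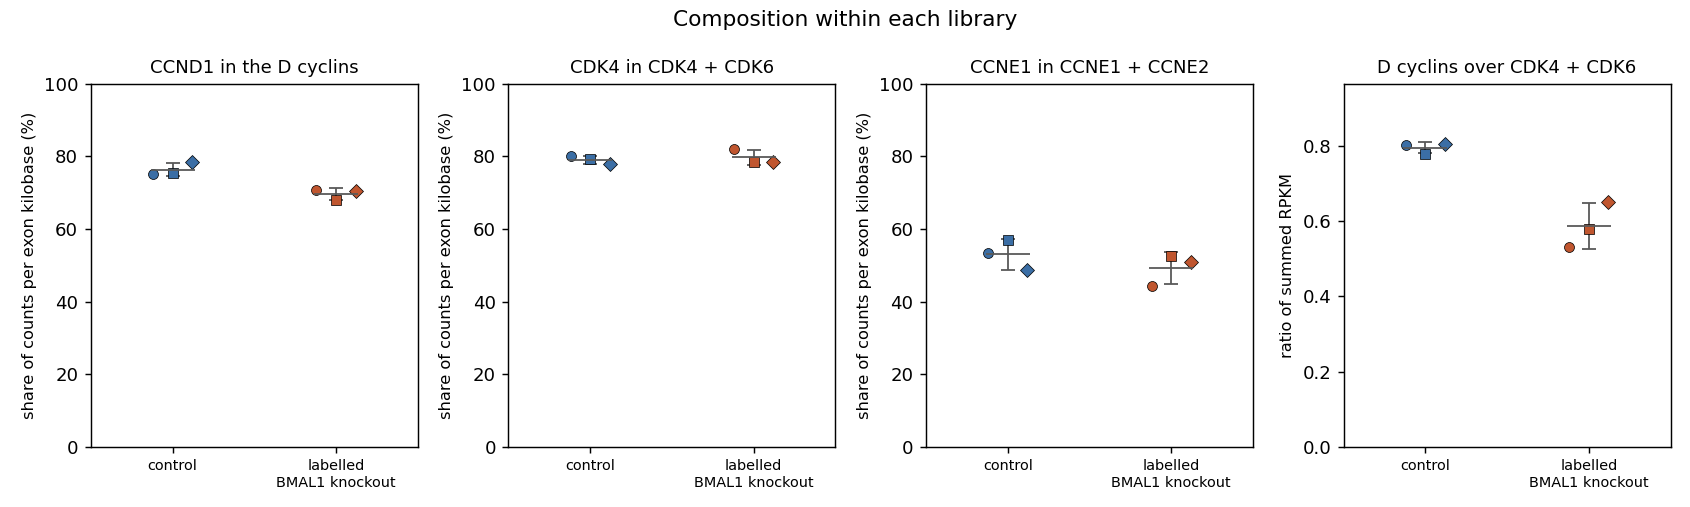
Share of CCND1 in the D cyclins, of CDK4 in CDK4 and CDK6, and of CCNE1 in the E cyclins (percent of counts per exon kilobase), and the ratio of summed D cyclins to summed CDK4 and CDK6; points are libraries, bars the mean of 3 and whiskers the SD. The groups separate in the first panel (75.0% to 78.4% against 67.8% to 70.8%) and in the last (0.778 to 0.804 against 0.531 to 0.651), and overlap in the others.

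The promoters of the genes were searched for the E-box CACGTG, the word bound by BMAL1 with CLOCK and also by MYC. Windows of 300 bases from RefSeq (build GRCh38.p14), from 250 before to 50 after a transcript's start, were found for 6 of the 10 genes, CCND3, CCNE1, CDK4, CDK6, RB1 and RBL1, in 9 windows; CCND1, CCND2, CCNE2 and CDK2 had none. Of the 9 windows, 6 lie wholly inside the annotated gene, the 3 of CCND3, that of CDK4, that of RB1 and 1 of CDK6, and those of CDK4, CCNE1 and RBL1, 1 of CCND3 and the other of CDK6 are set at the start of the canonical transcript of GENCODE v44. The E-box reads the same on both strands and was in 7.26% of all 35116 windows. CDK4 held it 3 times and CDK6 once, and the other windows searched did not hold it. The CDK4 window, chr12:57752261-57752560 on the reverse strand, is shown because it held this word more often than any other window searched, with the E-boxes in capitals:

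CDK4: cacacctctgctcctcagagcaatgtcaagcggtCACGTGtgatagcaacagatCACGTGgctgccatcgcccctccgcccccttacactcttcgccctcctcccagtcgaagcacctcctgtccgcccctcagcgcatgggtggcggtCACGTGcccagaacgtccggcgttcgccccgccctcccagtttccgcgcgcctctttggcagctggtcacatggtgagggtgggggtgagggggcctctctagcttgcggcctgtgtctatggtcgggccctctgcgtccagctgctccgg

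The E-boxes begin 216, 196 and 101 bases before the start. A match is a description and says nothing of binding in these cells.

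The E cyclins differed in how they spread over the libraries. CCNE1 (ENSG00000105173.14), which encodes cyclin E1, stood at 14.3, 16.6 and 13.1 CPM in the controls and at 15.5, 14.6 and 15.4 CPM in the libraries labelled knockout. All 3 libraries labelled knockout lay within the range of the controls. Its log2 fold change was 0.05 (SE 0.11, edgeR adjusted p = 0.866), and it was -0.02 without control replicate 3. CCNE2 (ENSG00000175305.18), which encodes cyclin E2, stood at 22.4, 22.3 and 24.8 CPM in the controls and at 34.8, 23.5 and 26.4 CPM in the libraries labelled knockout. Knockout replicate 1 was far above the other 5, and knockout replicate 2 lay within the controls' range. The log2 fold change of CCNE2 was 0.29 (SE 0.13, edgeR adjusted p = 0.304) with all libraries and 0.11 (edgeR adjusted p = 0.579) without knockout replicate 1. CCNE2 shares 37.0% of its exon length with INTS8 on the opposite strand, which was also highest in knockout replicate 1, at 99.4 CPM against 70.9 to 79.7 CPM in the other libraries. Whether reads of INTS8 entered the counts of CCNE2 was not tested. CCNE1 made up 53.0 ± 4.18% (SD, n = 3) of the E cyclins per length in the controls and 49.3 ± 4.46% (SD, n = 3) in the libraries labelled knockout (two-sided exact permutation test, p = 0.4).

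CDK2 (ENSG00000123374.11), the partner of the E cyclins, stood at 111, 109.6 and 106 CPM in the controls and at 116, 119.7 and 113 CPM in the libraries labelled knockout. Each library labelled knockout was above each control, by a narrow margin. The log2 fold change was 0.09 (SE 0.07, 95% interval -0.06 to 0.24, edgeR adjusted p = 0.555), and the exact permutation test gave p = 0.1, the smallest possible, for a separation that 11.8% of all loci showed.

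Per length, the order of the genes put CDK4 first at 60.0 ± 1.18 RPKM (SD, n = 3) in the controls and CCND1 next at 45.9 ± 1.32 RPKM (SD, n = 3). CDK2 followed at 28.1 ± 0.633 RPKM (SD, n = 3), then RB1 at 20.0, RBL1 at 16.8, CDK6 at 15.9, CCND3 at 14.3, CCNE1 at 5.96, CCNE2 at 5.27 and CCND2 at 0.0123 RPKM. RBL1 stood above CDK6 by little more than the SD of CDK6, 0.791 RPKM, and CCNE1 and CCNE2 differed by less than the SD of CCNE1, 0.707 RPKM. In the libraries labelled knockout CCND1 was at 29.9 ± 2.07 RPKM (SD, n = 3) and CDK2 at 29.9 ± 0.850 RPKM (SD, n = 3), so CCND1 no longer stood above CDK2, and the other genes kept their places except that CCNE2 was at 6.42 and CCNE1 at 6.15 RPKM, within the SD of 1.34 of CCNE2.

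**Figure D4:**
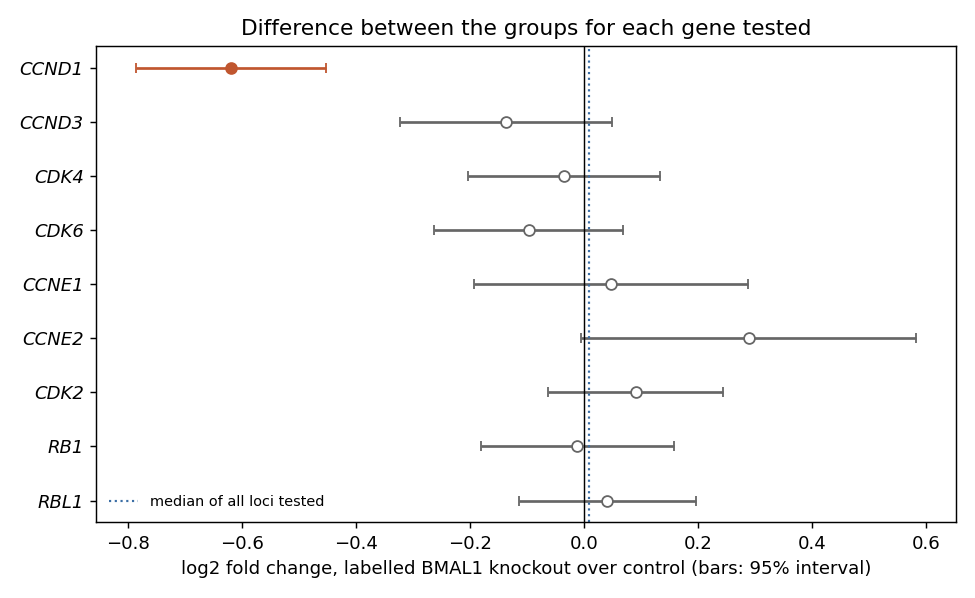
Log2 fold change (libraries labelled BMAL1 knockout over control) of the 9 G1 genes tested, with 95% intervals from edgeR; the dotted line is the median of all loci tested, 0.01, and the filled point passed an adjusted p under 0.05. The interval of CCND1 runs from -0.79 to -0.45, and each of the other 8 holds 0.

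The pocket proteins were not called. RB1 (ENSG00000139687.16) stood at 127, 120.4 and 138 CPM in the controls and at 129, 122 and 131 CPM in the libraries labelled knockout, all within the controls' range. Its log2 fold change was -0.01 (SE 0.08, 95% interval -0.18 to 0.16, edgeR adjusted p = 0.965), and with library size as the only scaling it was 0.02. RBL1 (ENSG00000080839.12) stood at 98.3, 100.2 and 101 CPM and at 99.4, 107 and 102 CPM, with 1 library labelled knockout inside the controls' range and the others above it. Its log2 fold change was 0.04 (SE 0.07, 95% interval -0.11 to 0.20, edgeR adjusted p = 0.820), and it was -0.00123 with each library's GC trend removed. RB1 made up 54.3 ± 1.61% (SD, n = 3) of the pair per length in the controls and 53.5 ± 1.72% (SD, n = 3) in the libraries labelled knockout (two-sided exact permutation test, p = 0.6).

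RBL1 is itself a known E2F target. Its promoter is shown because it alone among the 9 windows searched, which did not include CCNE2, held an E2F word. The words TTTCCCGC, TTTGGCGC and TTTCGCGC, searched on both strands, were in 2.74% of the 35116 windows. The RBL1 window, chr20:37095948-37096247 on the reverse strand (RefSeq, GRCh38.p14), held TTTCGCGC and TTTGGCGC, which do not overlap, 26 and 16 bases before the start, in capitals:

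RBL1: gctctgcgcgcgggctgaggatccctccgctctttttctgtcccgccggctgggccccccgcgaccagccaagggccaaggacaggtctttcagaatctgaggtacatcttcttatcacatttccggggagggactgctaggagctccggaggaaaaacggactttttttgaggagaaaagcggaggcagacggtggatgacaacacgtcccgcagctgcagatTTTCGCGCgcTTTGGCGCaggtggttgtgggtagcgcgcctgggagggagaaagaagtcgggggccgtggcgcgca

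The CHR word TTTGAA, through which the MuvB complex binds promoters of mitotic genes, was in 15.2% of all windows. It was in none of the 9 windows searched for these genes.

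Genes that act on these cyclins and kinases were read as lists. All 7 CDK inhibitors had a log2 fold change above 0, as did 7773 of the 14860 loci tested. Their median was 0.23 beside 0.01 over all loci. Only 1 of them, CDKN2B, was called by edgeR at an adjusted p under 0.05, against 2.37% of all loci. At an unadjusted p under 0.05 there were 3, all higher, beside 16.9% of all loci in either direction and 1353 of 14860 on the higher side. The libraries separated by group at 3 of the 7 on the higher side, beside 11.8% of all loci. Control replicate 3, without which CDKN2A was not above 0, was the lowest library at 5 of the 7, and knockout replicate 2 the highest at 5. CDKN2B, which encodes p15, an inhibitor of CDK4 and CDK6, stood at 6.78, 6.66 and 6.39 CPM in the controls and at 9.42, 11.04 and 10.97 CPM in the libraries labelled knockout. It rose by a log2 fold change of 0.66 (SE 0.12, edgeR adjusted p = 0.0160), and the call was lost, at an adjusted p of 0.0502 to 0.0768, without control replicate 1, 2 or 3 or knockout replicate 2 or 3. DESeq2 called CDKN1A besides. CDKN1A, which encodes p21, stood at 113, 109 and 88.9 CPM in the controls and at 127, 158 and 139.8 CPM in the libraries labelled knockout, and had a log2 fold change of 0.45 (edgeR adjusted p = 0.0520). Its adjusted p was 0.0156 without knockout replicate 1 and from 0.0730 to 0.186 without each of the others. Over all 15 alternatives of scaling, filter, test, block, depth, GC trend and left-out library it ran from 0.00291 to 0.186 and was under 0.05 in 7. The log2 fold change of CDKN1B (p27) was 0.16 (edgeR adjusted p = 0.383) and that of CDKN2A (p16 and ARF) 0.10 (edgeR adjusted p = 0.686), or -0.01 without control replicate 3. Of 9 genes of CDK activation, among them the kinase complex of CDK7 and the CDC25 phosphatases, edgeR called 0, as did DESeq2 and limma-voom. Beside this edgeR called 2.37% of all loci. An unadjusted p under 0.05 was found for 2 of the 9, beside 16.9% of all loci. Of 15 genes that set the turnover of G1 cyclins and inhibitors, edgeR called 0, as did DESeq2 and limma-voom, beside the same 2.37%. An unadjusted p under 0.05 was found for 2 of the 15, beside the same 16.9%.

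The pocket proteins act on E2F factors. Of 11 E2F factors, DP partners and RBL2, edgeR called 1, beside 2.37% of all loci, and this was E2F7, a repressor of E2F targets. An unadjusted p under 0.05 was found for 3 of the 11, all higher, beside 16.9% of all loci in either direction and 1353 of 14860 on the higher side. The libraries separated by group at 3 on the higher side and 4 on the lower side, beside 11.8% and 11.5% of all loci. E2F7 stood at 44.8, 43.2 and 45.4 CPM in the controls and at 57.0, 59.2 and 55.3 CPM in the libraries labelled knockout, so all 3 lay higher. It rose by a log2 fold change of 0.36 (SE 0.08, edgeR adjusted p = 0.0338), and the call was lost, at an adjusted p of 0.0623 to 0.180, without control replicate 1, 2 or 3 or knockout replicate 2 or 3. RBL2, the third pocket protein, had a log2 fold change of -0.06 (edgeR adjusted p = 0.765), or -0.03 without control replicate 3. Its libraries separated by group on the lower side. Of 26 genes that E2F activates for S phase, 11 had a log2 fold change above 0 and 15 below, with a median of -0.01, and edgeR called 1, which is not analysed here, beside 2.37% of all loci. Knockout replicate 1 was the highest or lowest library at 19 of these 26 genes, a share of 73.1% beside 49.3% of all loci.

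Of 8 DREAM and MuvB subunits and of 10 corepressors of pocket proteins, edgeR called 0, as did DESeq2 and limma-voom, beside 2.37% of all loci by edgeR. An unadjusted p under 0.05 was found for 0 of them, beside 16.9% of all loci. The 7 genes that make up the cyclins of S phase and mitosis and CDK1 had a median log2 fold change of -0.01. Of them edgeR and limma-voom called 0, beside 2.37% of all loci by edgeR, and DESeq2 called 1, CDK1. An unadjusted p under 0.05 was found for 2, beside 16.9% of all loci. These were CDK1 and CCNA1, each with a log2 fold change of 0.44 (edgeR adjusted p = 0.118 and 0.152) and libraries separated by group on the higher side. Knockout replicate 1 was the highest or lowest library at 6 of these 7.

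The tissue label was checked against marker genes. Of 12 thyroid follicular markers 3 reached a mean of 1 CPM, PAX8, FOXE1 and DIO2, of which PAX8 was the most abundant at 122 CPM; TG, TSHR and SLC5A5 were under 1 CPM and NKX2-1 and IYD at 0 in every library, so the differentiated thyroid markers were absent or nearly so. The summed level of the 12 was 175, 175 and 203 CPM in the controls and 132, 152 and 175 CPM in the libraries labelled knockout. Of the 4 tested, edgeR called 0, as did DESeq2 and limma-voom, beside 2.37% of all loci by edgeR. An unadjusted p under 0.05 was found for 2, beside 16.9% of all loci. These 2 were PAX8 and FOXE1, with log2 fold changes of -0.28 and -0.26 (edgeR adjusted p = 0.263 and 0.141). The libraries of FOXE1 separated by group on the lower side, and the other 2 markers tested had a log2 fold change above 0. Of 6 epithelial markers 4 reached 1 CPM, KRT8 being the most abundant at a mean of 1282 CPM, with EPCAM and CDH1 under 1 CPM. Their sum was 2990.1, 3044 and 2897 CPM in the controls and 2539.5, 2482 and 2563 CPM in the libraries labelled knockout, with KRT8 and KRT18 making up much of it. Of the 5 tested 3 had a log2 fold change above 0 and 2 below, with a median of 0.10 that counts EPCAM. An unadjusted p under 0.05 was found for 2, beside 16.9% of all loci, and edgeR called 1, beside 2.37% of all loci. This was KRT18, which fell by 0.50 on the log2 scale (edgeR adjusted p = 0.00588, and 0.0561 without control replicate 2). KRT8 had a log2 fold change of -0.28 (edgeR adjusted p = 0.0517), with its libraries separated by group on the lower side, and was called by DESeq2. KRT18 was thus lower in the same libraries as CCND1, and the part of cell makeup in the result was not tested.

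Markers of other cell types were read too. Of 5 leukocyte markers, CD3E was at 0 in every library, and the most abundant was CD68 at a mean of 11.1 CPM. Their sum was 19.2, 19.7 and 17.9 CPM in the controls and 14.1, 12.4 and 13.1 CPM in the libraries labelled knockout, and edgeR called 1 of the 3 tested, beside 2.37% of all loci. This was PTPRC, which fell by 1.42 on the log2 scale (edgeR adjusted p = 0.00107), while CD14 had a log2 fold change of 0.97 (edgeR adjusted p = 0.343) and CD68 of -0.27 (edgeR adjusted p = 0.294). Of the 3 tested, 2 had an unadjusted p under 0.05, both lower, beside 16.9% of all loci in either direction and 1153 of 14860 on the lower side. PTPRC too was lower in the same libraries as CCND1, and its part was not tested. Of 7 fibroblast markers COL1A1 was the most abundant at a mean of 859.6 CPM, above CCND1 in CPM, and DCN and LUM were at 0 in every library. Of the 2 fibroblast markers tested, edgeR called 0, as did DESeq2 and limma-voom, beside 2.37% of all loci by edgeR. An unadjusted p under 0.05 was found for 0, beside 16.9% of all loci. Of 4 endothelial markers VWF was the most abundant at 1.10 CPM, and the 3 C cell markers were each under 1 CPM, with CALCA at 0 in every library, and were not tested. Of the 2 endothelial markers tested, edgeR called 0, as did DESeq2 and limma-voom, and 0 had an unadjusted p under 0.05, beside the same 2.37% and 16.9%.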

How the data were processed

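Bulk RNA-seq of 6 libraries of HTori-3.1 was used. The authors trimmed and mapped the reads (hg38), and the deposited file holds integer counts for each locus, made from reads with a unique alignment and not normalized. The submitters' notes name fastp 0.20.1 and HISAT2 2.0.4; gene annotation and strandedness are not given in the sources used here. Columns were matched to samples by name. Counts were tested with edgeR 4.0.16 (R 4.3.3): TMM scaling, default low-count filter (14860 of 22354 loci kept), robust quasi-likelihood test of the 2 groups without covariates, and Benjamini-Hochberg adjustment over all loci kept, at 0.05. Single values were also compared by two-sided exact permutation of 3 libraries against 3. CPM used the TMM factors, and RPKM divided it by the merged exon length in GENCODE v44. Floors of 3 counts cover counting error only. The steps were tested on simulated counts. Total counts ran from 26893063 to 43563391; the biological coefficient of variation was 0.108, and replicates of a group differed by 5.31 to 46.4 times the counting variance, so none was a duplicate. GC content of exons could be assigned to 91.4% of the tested loci. Alternatives were other size factors, other filters, DESeq2 1.42.0, limma-voom (limma 3.58.1), a replicate block, each library left out, equal depth, and a removed GC trend. Genes named are the members, BMAL1, called genes of each list (at most 8; 1 is not used here), RBL2, CDKN1A, CDKN1B, CDKN2A, CDKN2B, and genes from the 3 most correlated with CCND1, of which 1 is not used here; CDK1, KRT8, CTTN, the list of 10 clock genes, LTO1, MYEOV, SMIM38, CCNA1, TSPAN31, INTS8 and other markers were named after their values were seen. Members and lists were chosen with earlier results of these data known.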

Additional observations from a re-analysis of the deposited data

How the results depend on the processing

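CCND1 kept its direction and an adjusted p under 0.05 in all 15 alternatives of scaling, filter, test, block, depth, GC trend and left-out library, with log2 fold changes from -0.68 to -0.58 and adjusted p from 5.03e-12 to 0.0206. It was the 1 member called in each, except under a fold change over 2 with an unadjusted p under 0.01, where 0 were called. The other 8 members tested were called in 0 of their 15 alternatives.

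The count of all loci called, 352, was 635 with DESeq2, 1029 with the GC trend removed, 136 under the fold threshold, and from 104 to 683 with a library left out, the highest without knockout replicate 1; the cause was not tested. The replicate block gave 216 loci and called CCND1, but not E2F7 (adjusted p 0.106), LAMB1 (0.0806), PER3 (0.0543) or TEF (0.0754). Same-numbered libraries correlated at -0.189, 0.0174 and -0.0720 in their deviations from group means, and unlike-numbered ones from -0.166 to 0.194. With 3 libraries in a group these deviations are too few to decide whether the shared numbers pair them.

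Directions near 0 turned. RB1 was at 0.0179 with library size only and RBL1 at -0.00123 with the GC trend removed. The difference in the share of CDK4 turned from 0.63 to -0.54 percentage points without knockout replicate 1. That in the share of RB1 turned from -0.88 to 0.11 percentage points without knockout replicate 2. With a library left out, RB1 ran from -0.0555 to 0.0466, CCNE1 from -0.0230 to 0.14, CDK4 from -0.10 to 0.00518 and CDKN2A from -0.0129 to 0.17. Others kept their direction but moved: CCND3 from -0.19 to -0.08, CDK6 from -0.13 to -0.05, CCNE2 from 0.11 to 0.40, RBL1 from 0.01 to 0.06 and CDKN1B from 0.09 to 0.22, and the difference in the share of CCNE1 from -5.86 to -1.17 percentage points. The cause was not tested.

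Among the members only CCND2 failed the filter on low counts, with 2 to 4 reads in each library, and the part of depth was not tested. Counts were simulated with the same biological coefficient of variation at every locus, and changed loci were drawn from all levels. There 46.0% of log2 fold changes of 0.5 and 94.5% of 1 were called, with 8.91% and 5.03% of calls false. Differences of such sizes can thus be missed at some loci, but these shares were not measured for the members, whose own intervals are given above. Shares and exact tests could not reach a p under 0.1.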
